A study of Homo sapiens with 18 samples.

Results

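JEKO1 and MAVER, 2 established human cell lines from mantle cell lymphoma, were compared as they stood in the solvent control, with no inhibitor added. The comparison used 6 of the 18 RNA-seq libraries of the series, chosen by their labels alone: 3 libraries of JEKO1 and 3 of MAVER, lettered A, B and C in each line, all from cells kept with DMSO for 6 h. The other 12 libraries hold JEKO1 labelled IB and MAVER labelled IB, KPT or PU. IB is taken to stand for ibrutinib, which blocks BTK, a kinase of the B cell receptor pathway, and KPT for selinexor, which blocks the nuclear exporter XPO1; the meaning of PU is not given. No engineered allele or other agent is named for either line. Each line is 1 source of cells and has its own deposited table, so line and table cannot be told apart, and a p-value below measures the spread between libraries of a line, not between patients or tumours.

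Mantle cell lymphoma arises from mature B cells in which the cyclin D1 gene CCND1 is usually joined to the immunoglobulin heavy chain locus, and most cases also express the transcription factor SOX11. Survival signals reach these cells through the B cell receptor and BTK, which lead to the classical NF-kB pathway, and through a noncanonical NF-kB pathway. In the noncanonical pathway TRAF3, with TRAF2 and the ubiquitin ligases BIRC2 and BIRC3, keeps the kinase MAP3K14 low, and MAP3K14 in turn starts the processing of the NFKB2 precursor, which partners with RELB. In published drug panels JEKO1 has served as a line that responds to ibrutinib and MAVER as one that does not; the sources used here do not state this.

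The recovered depth was 9023575 to 11695852 reads per library in JEKO1 and 9897029 to 12085782 in MAVER. Across genes, log2 levels correlated at 0.9927 to 0.9946 within a line and at 0.7721 to 0.777 between the lines, and the first principal component, which separated the lines, held 96.2% of the variance. JEKO1 library C stood apart from A and B: a chi-square of read counts over genes, per degree of freedom, was 4.78 and 4.41 for C against A and B, and 1.39 for A against B. The ribosomal precursor RNA45S5 was at 66830 in C against 24750 and 25710 in the other JEKO1 libraries. In the MHC segment, from GABBR1 to KIFC1 in reference order, 102 of 136 protein-coding genes were listed at a mean under 1 in both lines. These include genes that every cell uses, such as DDX39B, BAG6 and RPS18, so no level in that segment was read, and its genes were left out of the lists, a choice made after the values were seen.

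The DMSO and IB labels of JEKO1 need care. EGR1, an early response gene downstream of the B cell receptor, had a mean normalized count of 18.1 in JEKO1 with DMSO and 215.9 in JEKO1 labelled IB, but 38.2 in MAVER with DMSO and 0.37 in MAVER labelled IB. An exchange of the JEKO1 labels and an opposite response of that line cannot be told apart from these files. The line difference is therefore also given with the IB libraries of JEKO1 in place of its DMSO libraries, and with the IB libraries of both lines. The first of these shares the MAVER libraries with the main comparison and is given side by side only.

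Both lines expressed B cell genes, and they differed from each other in most genes tested. Values are normalized counts, meaning recovered reads scaled jointly over the libraries, and a log2 difference is JEKO1 minus MAVER on the scale log2(normalized count + 1). A gene was called at an adjusted p under 0.05 in limma. Of 11671 genes tested, 9543 were called (81.8%), 4757 higher in JEKO1 (40.8%) and 4786 higher in MAVER (41%). Because most genes passed at this spread, a further threshold of 2-fold was set, which 3649 genes passed (31.3%): 1736 genes were called and at least 2-fold higher in JEKO1 (14.9%), and 1913 were called and at least 2-fold higher in MAVER (16.4%). The median log2 difference over all genes was 0.0038. Scaling by upper quartiles moved that median to 0.12 and the values as deposited moved it to 0.18, so a log2 difference carries an uncertainty of about that size from the choice of scaling.

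**Figure D1:**
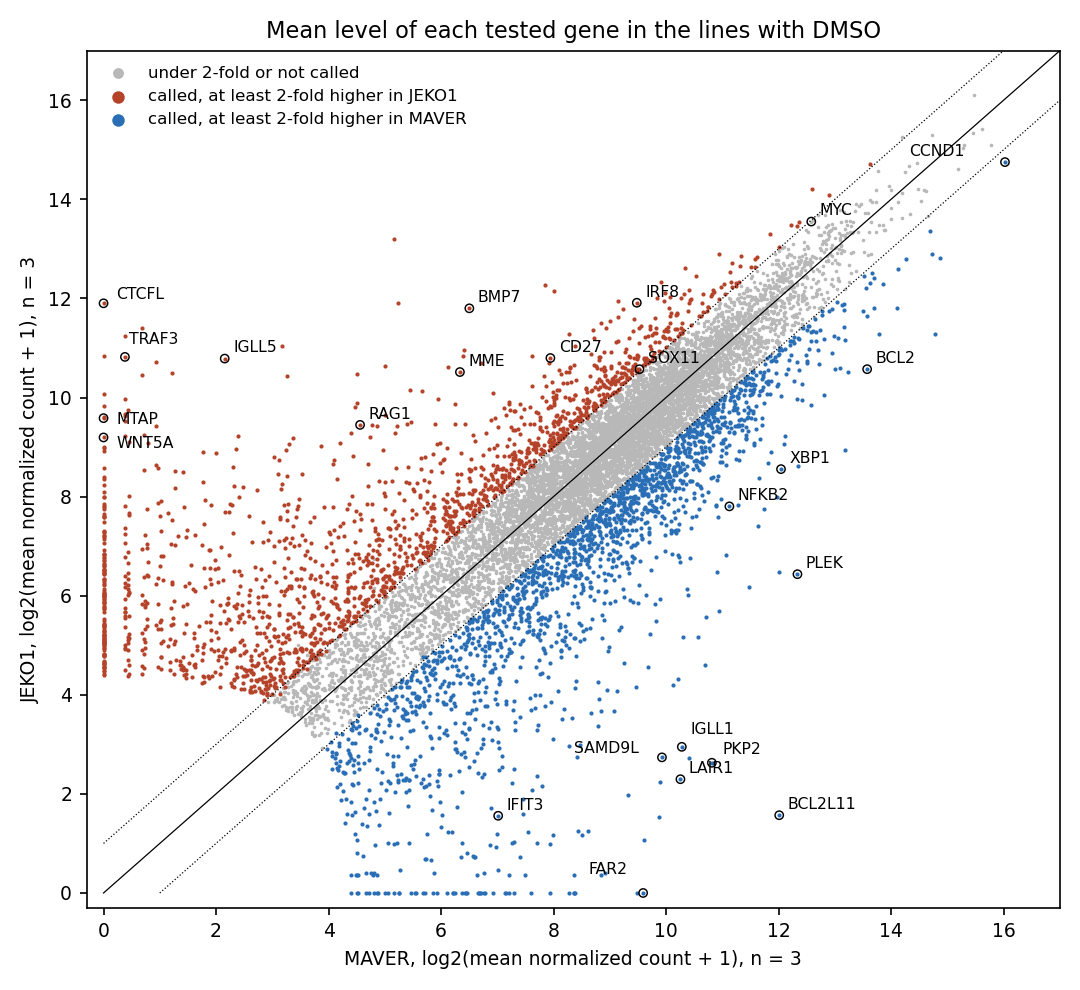
Each point is 1 gene tested, with the mean of the 3 MAVER libraries on the x axis and of the 3 JEKO1 libraries on the y axis, both as log2(mean normalized count + 1). The solid line marks equal levels and the dotted lines a 2-fold difference; genes along the left edge, such as CTCFL, MTAP and WNT5A, had no reads in MAVER, and those along the lower edge, such as FAR2, had none in JEKO1.

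With the IB libraries of both lines, which share no library with the DMSO comparison, 3539 of 11706 genes were called at least 2-fold different (30.2%). Among the 11540 genes tested in both comparisons these numbered 3412, against 3549 with DMSO. Of both lists, 2651 genes were called in the same direction, which is 74.7% of the DMSO list and 77.7% of the IB list, and 38 were called in opposite directions. Of the genes with values below, 128 passed 2-fold with DMSO, and 23 of them did not do so with the IB libraries of both lines: BIK, CD27, CD83, EGR1, HRK, ICAM1, MS4A1, NFKB1, NFKBIA, NOTCH1, NR4A1, NR4A3, PIM1, PTPN6, RAG1, RASGRP1, RELB, SOX11, TLR7, TNFAIP3, UBE2C, WNT10A and XPO4. A gene that turned around counts among these. Of the 128, 18 did not pass with the IB libraries of JEKO1 in place of its DMSO libraries, all of them among these 23.

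All 11 B cell markers looked at were above a mean of 10 in both lines. Their summed level was 31600 to 32800 in JEKO1 and 39500 to 41000 in MAVER. PAX5, which fixes B cell identity, stood at 5790, 5749 and 5338 in JEKO1 and at 2882, 3129 and 2891 in MAVER. Of T cell markers, ZAP70, CD247 and LCK were higher in JEKO1, and the summed level of the 17 markers in the tables was 923 to 1020 in JEKO1 against 123 to 155 in MAVER. ZAP70, a T cell receptor kinase also found in some B cell cancers, was at 311.3, 295.5 and 257.6 in JEKO1 and at 3.18, 1.09 and 0 in MAVER, while CD2 and CD8B had no reads in any of the 6 libraries. Erythroid markers summed to at most 4.88. Epithelial markers summed to 10.3 to 20.5 in JEKO1 and 198 to 241 in MAVER, nearly all of it EPCAM (202.3 ± 15.5, SD, n = 3, in MAVER), with KRT5, KRT14, KRT19 and CDH1 at 0. Fibroblast or endothelial markers summed to 2860 to 3150 in JEKO1 and 5750 to 5960 in MAVER, mostly VIM (2726 against 5387), with COL1A2, COL3A1, DCN, LUM, CDH5 and KDR at 0 in all 6 libraries. Myeloid markers summed to 502 to 566 and 915 to 998, with 7 of 14 at 0, MPO and S100A8 among them, and natural killer cell markers to 19.4 to 41.1 and 78.7 to 85.9, with 5 of 12 at 0. Except for T cell and erythroid markers, these sums were higher in MAVER, as were many of the groups below. The part of the sums in those results was not tested. In bulk RNA, fewer cells with a transcript and less of it per cell cannot be told apart.

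Cyclin D1 was high in both lines and higher in MAVER. CCND1 was at 27600, 28130 and 27080 in JEKO1 and at 65880, 67620 and 66680 in MAVER, a log2 difference of -1.27 ± 0.03 (SE, adjusted p = 1.08e-11, limma). CCND2, the cyclin used by cases without CCND1, was below 4 in all 6 libraries and was not tested. SOX11 went the other way, at 1535, 1485 and 1542 in JEKO1 and 696.7, 741.9 and 772.7 in MAVER (log2 difference 1.05 ± 0.05, adjusted p = 1.56e-09). For both genes the libraries of the lines did not overlap, which was also true of 82.5% of all genes tested. SOX11 was below the 2-fold threshold in both comparisons with IB libraries (0.79 and 0.69).

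Partners of cyclin D1 differed by about the same amount. CDK4, its kinase, had mean normalized counts of 13120 in JEKO1 and 6697 in MAVER, and RB1, the brake that the kinase releases, 4386 and 2114. Cyclin E2, CCNE2, which acts at the same step of the cycle, was lower in JEKO1 (39.6 ± 6.2 against 399.1 ± 4.3, SD, n = 3). NOTCH1 and NOTCH2, receptors recurrently mutated in this lymphoma, were both higher in MAVER, at 849.3 against 211.0 and at 8477 against 2360, though NOTCH1 was at -0.72 with IB in both lines. In all, 3 of 12 tested members of the cyclin D and SOX11 list were called at least 2-fold higher in JEKO1 (background 14.9%) and 6 at least 2-fold higher in MAVER (background 16.4%).

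**Figure D2:**
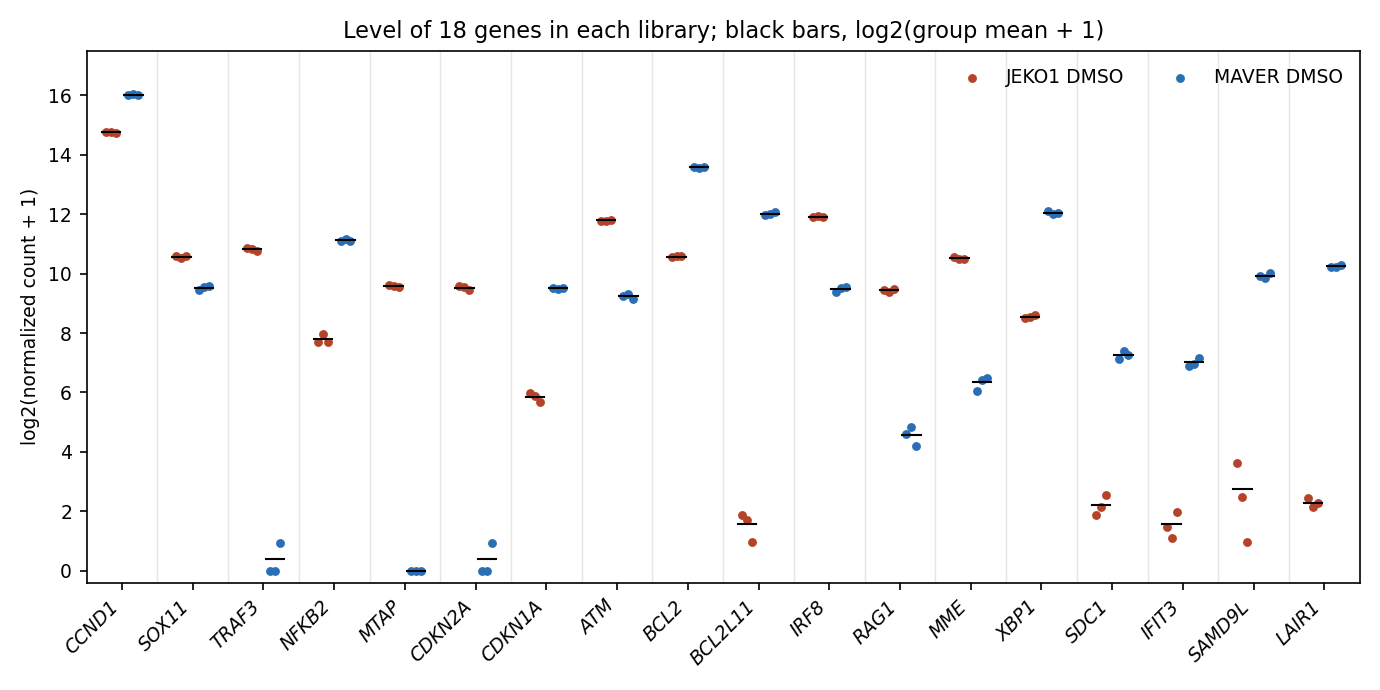
Level of 18 genes in each library, as log2(normalized count + 1); red points are the 3 JEKO1 DMSO libraries and blue points the 3 MAVER DMSO libraries, and a black bar marks log2(group mean + 1). In each of the 18 genes the libraries of a line lie apart from the other line. Libraries of a line mostly lie close together, but those of JEKO1 spread widely for SAMD9L (normalized counts 11.5, 4.56 and 0.976). TRAF3, MTAP and CDKN2A lie at or near 0 in MAVER, and BCL2L11, SDC1, IFIT3 and LAIR1 lie below 3 on this scale in JEKO1.

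TRAF3 was the regulator of the noncanonical pathway that separated the lines most. It stood at 1874, 1823 and 1723 in JEKO1 and at 0, 0 and 0.905 in MAVER, where 1 read was counted over the group (ratio 5360, 95% counting interval 962 to 212000). In the other 9 MAVER libraries its mean was 0.152. The next 2 tested genes in reference order, AMN and CDC42BPB, had no reads in MAVER with DMSO and means of 148.7 and 1840 in JEKO1; CDC42BPB, a kinase that acts on the cytoskeleton, was at least 1820-fold higher in JEKO1 against a floor of 3 counts over the group. The genes on either side of these, RCOR1 and EIF5, were read in both lines, at 1551 and 6635 in JEKO1 and 614.2 and 5273 in MAVER.

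MAP3K14, BIRC2, BIRC3 and TRAF2 were read in both lines. MAP3K14, the kinase that TRAF3 holds down, was higher in MAVER at the RNA level (900.2, 1018 and 884.9 against 471.8, 486.0 and 446.0), with a log2 difference of -0.99 ± 0.07 (adjusted p = 2.97e-08), just under 2-fold. BIRC2 was higher in JEKO1 (1174 ± 14.0 against 382.3 ± 24.9, SD, n = 3) and its relative BIRC3 higher in MAVER (725.8 ± 62.9 against 2130 ± 70.9). TRAF2 differed by -0.37 ± 0.07. Of the 16 tested members of the noncanonical list, 3 were called at least 2-fold higher in JEKO1 and 7 at least 2-fold higher in MAVER (14.9% and 16.4% over all genes), with a median log2 difference of -0.97. These were 4 and 3 with the IB libraries of JEKO1, with a median of -0.38, and with IB in both lines 4 and 4, with a median of -0.34.

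Several NF-kB subunits and inhibitors were higher in MAVER when both lines carried the DMSO label. NFKB2 was at 207.3, 252.1 and 207.9 in JEKO1 and at 2198, 2303 and 2203 in MAVER (log2 difference -3.33 ± 0.07, adjusted p = 3.06e-12). NFKBIA, which encodes the inhibitor IkB alpha and is itself induced by NF-kB, was at 271.6, 245.3 and 270.3 in JEKO1 and at 971.3, 1018 and 1025 in MAVER (-1.93 ± 0.06, adjusted p = 5.88e-11). NFKB1 differed by -1.80 ± 0.05 and RELB by -1.28 ± 0.07, while RELA, the main classical subunit, was near equal (1395 against 1284). Of the 14 tested members, 6 were called at least 2-fold higher in MAVER and 1 in JEKO1 (16.4% and 14.9% over all genes).

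This group depended on which JEKO1 libraries were taken. With the IB libraries of JEKO1 the median of the list was 0.03 instead of -0.70, and 4 members were called at least 2-fold higher in JEKO1 (background 14.4%) and 2 in MAVER (background 15.3%). NFKB2 kept a difference of -1.23, since it was at 953.8 in JEKO1 labelled IB. NFKB1 was at -0.82 and NFKBIA at -0.33, and RELB turned to 0.36. With the IB libraries of both lines the median of the list was 0.08.

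NF-kB target genes showed the same pattern, but their list is not separate from those above. It shares NFKB2, RELB, NFKBIA and NFKBIE with the list of subunits and inhibitors, and BIRC3 and TRAF1 with the noncanonical list. Of 32 tested, 20 were called at least 2-fold higher in MAVER with DMSO and 2 higher in JEKO1 (16.4% and 14.9% over all genes). The median of the list was -1.40. PLEK, a cytoskeletal adaptor of blood cells, was at 79.4, 98.1 and 79.1 in JEKO1 and 5359, 5076 and 5080 in MAVER, and IL2RG, the shared receptor chain of several interleukins, at 475.1 ± 12.3 and 3732 ± 50.0 (SD, n = 3). TNFAIP3, which ends NF-kB signalling, was 82.8 against 575.4. TNFAIP3 was at -0.76 with the IB libraries of JEKO1 and at -0.89 with those of both lines. PIM1, a survival kinase, was 1 of the 2 higher in JEKO1 (6279 against 1297, log2 difference 2.28), and its difference was 0.95 with the IB libraries of both lines. With the IB libraries of JEKO1 the counts were 9 higher in MAVER and 6 higher in JEKO1, and with those of both lines 9 (background 15.6%) and 8 (background 14.7%). PLEK and IL2RG kept differences of -3.40 and -1.996 with JEKO1 labelled IB, whereas CD83 and ICAM1, an activation marker and an adhesion receptor, turned to 0.88 and 1.26.

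The promoters of several of these targets hold the kB motif, the letters to which NF-kB dimers bind. The motif was searched as GGGA, any 2 bases and TTCC on both strands in the 250 bases before each start in the RefSeq promoter table (GRCh38.p14), where 1.73% of all promoters hold it. It was present for 6 of the 18 targets at least 2-fold higher in MAVER that have an entry there, namely CD83, NFKB2, NFKBIA, RGS1, TNFAIP3 and TNIP1, and for 0 of the 10 other targets. The contrast of these counts was not tested. Among genes tested the share was 1.86%, and among those at least 2-fold higher in MAVER 2.82%. Stretches of 3 genes at least 2-fold higher in MAVER with DMSO are shown, with the motif in capitals: NFKB2 at chr10:102395674-102395703 on the plus strand, NFKBIA at chr14:35404811-35404840 on the minus strand and TNFAIP3 at chr6:137867182-137867211 on the plus strand. NFKBIA and TNFAIP3 fell under 2-fold in both comparisons with IB libraries, whereas NFKB2 did not. A match is a description of the letters and not evidence of binding.
NFKB2: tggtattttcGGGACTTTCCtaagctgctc
NFKBIA: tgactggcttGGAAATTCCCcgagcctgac
TNFAIP3: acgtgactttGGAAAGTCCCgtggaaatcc

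**Figure D3:**
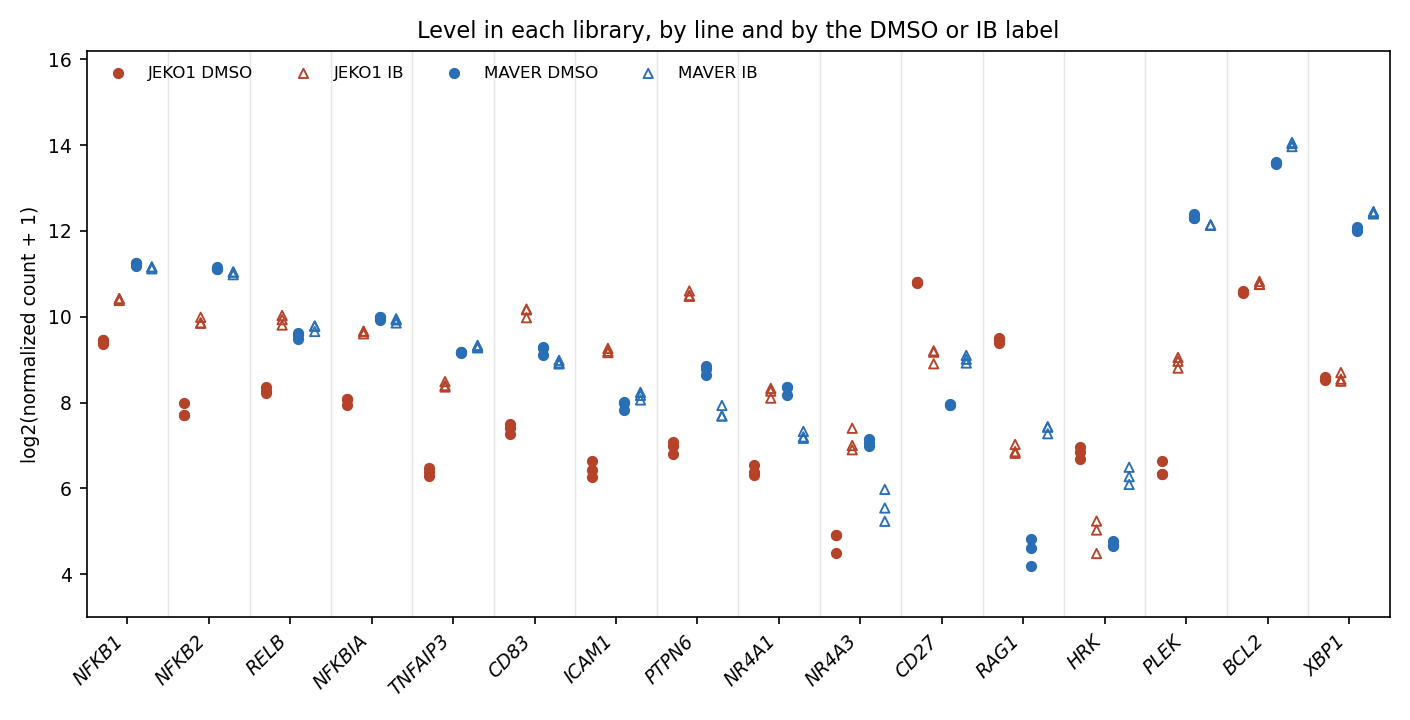
Level of 16 genes in each library as log2(normalized count + 1), with JEKO1 in red, MAVER in blue, filled circles for libraries labelled DMSO and open triangles for libraries labelled IB. NFKB2, PLEK, BCL2 and XBP1 are higher in MAVER under either label, while CD83, ICAM1, PTPN6, NR4A1 and NR4A3 lie below MAVER in JEKO1 DMSO but not below MAVER IB in JEKO1 IB.

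The genes of B cell receptor signalling were nearly all expressed in both lines. BTK, the target of ibrutinib, was at 2324, 2359 and 2312 in JEKO1 and at 3203, 3330 and 3273 in MAVER. This was a log2 difference of -0.49 ± 0.04 (adjusted p = 7.06e-08, limma). BTK was at -0.18 with the IB libraries of JEKO1. With those of both lines it was at -0.03 and was not called (adjusted p = 0.486, limma). SYK, the kinase that acts before it, was 12290 against 6241. The largest differences were in NFATC1, a calcium-responsive transcription factor (533.1 ± 28.3 in JEKO1, 8.84 ± 2.88 in MAVER), and in RAC2, a GTPase of blood cells (215.3 ± 15.3 in JEKO1, 3444 ± 59.9 in MAVER). VAV3 and RASGRP1, 2 exchange factors that activate GTPases, were higher in MAVER with log2 differences of -3.38 ± 0.19 and -2.42 ± 0.13. Of 37 tested, 6 were called at least 2-fold higher in JEKO1, near the share of 14.9% over all genes, and 11 at least 2-fold higher in MAVER (16.4% over all genes). The split was 7 and 7 with the IB libraries of JEKO1. RASGRP1 was at -0.62 with the IB libraries of JEKO1, whereas NFATC1, RAC2 and VAV3 kept differences above 2-fold.

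Inhibitory receptors and phosphatases dampen that signal. Of the 19 members tested, 12 were called at least 2-fold higher in MAVER and none in JEKO1 (16.4% and 14.9% over all genes). LAIR1, an inhibitory receptor for collagen, was at 4.41, 3.42 and 3.90 in JEKO1 and at 1207, 1198 and 1260 in MAVER. LILRB4 was at 71.4 ± 10.3 and 2842 ± 49.1 and the phosphatase PTPRO at 0.913 ± 0.884 and 124.9 ± 1.5 (SD, n = 3). All 3 kept their direction at more than 2-fold in both comparisons with IB libraries. PTPN6, the phosphatase that these receptors recruit, did not: it was 123.0 in JEKO1 with DMSO and 434.9 in MAVER with DMSO, but 1472 in JEKO1 labelled IB. The median of the list was -1.53 with DMSO, -0.44 with the IB libraries of JEKO1 and 0.13 with IB in both lines.

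Surface antigens and maturation genes drew a different profile for each line. MME, which encodes CD10 and marks germinal centre and precursor B cells, was at 1509, 1445 and 1431 in JEKO1 and at 65.7, 84.0 and 89.6 in MAVER (log2 difference 4.19 ± 0.10, adjusted p = 7.23e-12). CD27, a marker of antigen-experienced B cells, was at 1779 ± 22.1 and 245.3 ± 2.2, and CD24, a glycoprotein of the B cell surface, at 5137 ± 200.4 and 967.1 ± 50.2. MAVER was higher in CD5, a hallmark of mantle cell lymphoma (30.0, 29.7 and 20.5 against 346.7, 311.0 and 354.7), and in MS4A1, which encodes the antibody target CD20 (5011 against 14920). SDC1, which encodes the plasma cell antigen CD138, was at 2.65, 3.42 and 4.88 in JEKO1 and at 140.0, 168.0 and 151.1 in MAVER. Among the 34 tested surface antigens, 15 were called at least 2-fold higher in MAVER and 4 in JEKO1 (16.4% and 14.9% over all genes). These counts were 9 and 5 with the IB libraries of JEKO1. CD27 had a difference of 2.85 with DMSO and 0.08 with IB in both lines, CD83 turned from -1.84 to 1.17, and MS4A1 went from -1.57 to -0.54.

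RAG1, which starts V(D)J recombination, was at 702.9, 669.6 and 720.2 in JEKO1 and at 23.3, 27.3 and 17.2 in MAVER. It was at 118.5 in JEKO1 labelled IB and at 165.5 in MAVER labelled IB, a line difference of -0.48. POLL, a DNA polymerase of end joining, had a log2 difference of 1.11 with DMSO. Of the 10 tested genes of V(D)J recombination and class switching, 3 were called at least 2-fold higher in JEKO1 and none in MAVER (14.9% and 16.4% over all genes), and with IB in both lines these were 2 and 0.

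Lambda-like light chains split between the lines. IGLL5 was at 1786, 1889 and 1621 in JEKO1 and at 6.36, 2.18 and 1.81 in MAVER. IGLL1, which encodes a surrogate light chain of precursor B cells, was at 6.17, 9.13 and 4.88 in JEKO1 and at 1248, 1297 and 1184 in MAVER. IGLL1, IGLL5 and the lambda constant genes are near copies, and the tables list only 5 of the 20 immunoglobulin genes looked for, so reads could have been split or shared between them. IGJ, the joining chain of secreted antibody, was higher in MAVER (5298 against 2311).

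Plasma cell regulators and BCL6 were higher in MAVER. XBP1, which drives antibody secretion, was at 365.1, 374.2 and 386.5 in JEKO1 and at 4363, 4097 and 4210 in MAVER (log2 difference -3.49 ± 0.04, adjusted p = 5.43e-14). PRDM1, which encodes the plasma cell regulator BLIMP1, was at 24.1 ± 7.1 and 243.4 ± 28.1, and BCL6, the germinal centre repressor that opposes it, at 40.2 ± 12.7 and 277.9 ± 19.4 (SD, n = 3). IRF8, a factor of germinal centre B cells, was higher in JEKO1 (3843, 3917 and 3806 against 667.0, 724.5 and 749.2). Among the 18 tested germinal centre and plasma cell genes, 11 were called at least 2-fold higher in MAVER and 4 in JEKO1. The shares over all genes were 16.4% and 14.9%, and the counts were 8 and 2 with IB in both lines. Of the 30 tested B cell transcription factors, 6 were called at least 2-fold higher in JEKO1 and 7 in MAVER, with a median of 0.05. Over all genes the shares were 14.9% and 16.4%. XBP1, PRDM1, BCL6 and IRF8 kept their direction above 2-fold in both comparisons with IB libraries.

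Interferon-stimulated genes formed one of the most one-sided groups. Of 35 tested, 22 were called at least 2-fold higher in MAVER and 2 in JEKO1 (16.4% and 14.9% over all genes). The median log2 difference was -1.67. SAMD9L, an antiviral and growth-restricting protein, was at 11.5, 4.56 and 0.976 in JEKO1 and at 967.0, 923.0 and 1029 in MAVER. IFI44 was at 1.05 ± 1.15 and 156.8 ± 14.0, IFIT3, which binds viral RNA, at 1.94 ± 0.91 and 128.4 ± 12.2, and IFIT5, of the same family, at 9.33 ± 3.26 and 444.2 ± 16.7 (SD, n = 3). The group was not uniform, since MX1, an antiviral GTPase, was near equal (126.5 against 118.0, adjusted p = 0.473) and IFITM1, which blocks viral entry, was higher in JEKO1 (134.3 against 5.26). The counts in MAVER held with the IB libraries of JEKO1 (19 against 3, median -1.32) and with IB in both lines (17 against 3, median -1.01).

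The interferon response motif, to which factors activated by interferon bind, was searched as GAAA, any 2 bases and GAAA on both strands of the same promoter windows, where 3.71% of all promoters hold it. It was present for 12 of the 17 interferon-stimulated genes at least 2-fold higher in MAVER that have an entry, and for 6 of the 10 that were not. The motif was thus common in the list on either side of the threshold. The stretches of 3 genes that were low in JEKO1 are shown, with the motif in capitals: IFIT3 at chr10:89327865-89327894 on the plus strand, IFI44 at chr1:78649761-78649788 on the plus strand and SAMD9, a relative of SAMD9L (73.0 in JEKO1 and 733.8 in MAVER), at chr7:93118096-93118125 on the minus strand.
IFIT3: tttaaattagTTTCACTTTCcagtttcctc
IFI44: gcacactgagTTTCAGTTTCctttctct
SAMD9: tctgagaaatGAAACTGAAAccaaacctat

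Several innate sensors were also higher in MAVER, while the RNA sensor gene DDX58 was higher in JEKO1 by less than 2-fold. IFIH1, a sensor of double-stranded RNA, was at 93.9 ± 15.1 and 640.0 ± 29.8, MB21D1, which encodes the DNA sensor cGAS, at 38.3 ± 3.9 and 365.0 ± 11.7, and TLR1 at 9.89 ± 3.83 and 117.7 ± 12.9 (SD, n = 3). IRAK1, a kinase of Toll-like receptors, was at 2473, 2621 and 2386 in JEKO1 and at 14050, 14330 and 14180 in MAVER. Its inhibitory relative IRAK3 had no reads in MAVER and 79.4, 93.5 and 66.4 in JEKO1. TLR7 was higher in JEKO1 (807.8 against 357.7), with log2 differences of 1.18 with DMSO and 0.61 and 0.68 in the comparisons with IB libraries. Of 28 tested, 11 were called at least 2-fold higher in MAVER and 2 in JEKO1 (16.4% and 14.9% over all genes), with a median of -0.68. With IB in both lines these were 7 and 4, and the median was 0.17.

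Antigen presentation genes outside the MHC segment were also higher in MAVER. B2M, the light chain of class I molecules, was at 10570 ± 377.6 and 26330 ± 798.2, and IFI30, a thiol reductase that helps to unfold antigens, at 331.7 ± 17.3 and 3204 ± 99.5. The peptide-trimming enzymes ERAP1 and ERAP2 went opposite ways, with log2 differences of -1.86 ± 0.05 and 2.11 ± 0.12. CD74, the class II invariant chain, differed by -0.68 ± 0.03. In MAVER, 6 of the 9 class I genes tested and 2 of the 7 class II genes tested were called at least 2-fold higher (16.4% over all genes). In JEKO1 this held for 1 class I gene and no class II gene (14.9% over all genes).

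The genes of cell death and the DNA damage response held some of the largest single differences. BCL2L11, which encodes the killer protein BIM, was at 2.65, 2.28 and 0.976 in JEKO1 and at 4016, 4072 and 4301 in MAVER (log2 difference -10.49 ± 0.20, adjusted p = 9.8e-13). The neighbouring transcript MIR4435-1HG was also low in JEKO1, at 0.294 against 26.6, while the genes on either side, BUB1 and ANAPC1, were read in both lines (2266 and 723 in JEKO1, 3366 and 813 in MAVER). BCL2, the survival protein that BIM blocks, was at 1492, 1531 and 1543 in JEKO1 and at 12440, 12010 and 12190 in MAVER (-3.004 ± 0.03, adjusted p = 3.64e-14). MCL1, a survival protein of the same family, was near equal (4280 against 3395). The killer genes BIK and HRK went opposite ways with DMSO, with log2 differences of -2.54 ± 0.17 and 2.13 ± 0.16. In the BCL2 family and caspase list, 10 of the 24 tested members were called at least 2-fold higher in MAVER and 2 in JEKO1 (16.4% and 14.9% over all genes). These were 3 and 1 with the IB libraries of JEKO1, and with IB in both lines 4 and 1. BIK was at -0.84 and -0.80 in these comparisons and HRK at 0.21 and -1.37.

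Death receptor genes also tended toward MAVER. FADD, the adaptor that links death receptors to caspases, was at 572.7 ± 32.5 and 3261 ± 81.2, CYLD, a deubiquitinase that restrains NF-kB, at 335.5 ± 29.5 and 1826 ± 28.3, and the receptor TNFRSF14 at 30.0 ± 3.2 and 222.8 ± 25.3 (SD, n = 3). The ligand TNFSF8 was on the other side, at 220.5, 229.3 and 271.3 in JEKO1 and 0, 2.18 and 0.905 in MAVER. Of 18 tested, 8 were called at least 2-fold higher in MAVER and 3 in JEKO1 (16.4% and 14.9% over all genes). With IB in both lines these were 6 and 3.

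CDKN1A, which encodes the CDK inhibitor p21, was at 61.7, 58.2 and 50.8 in JEKO1 and at 732.7, 714.7 and 728.4 in MAVER. All 3 JEKO1 libraries lay below those of MAVER.

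ATM, a kinase that responds to DNA breaks and is often mutated in this lymphoma, was higher in JEKO1, at 3528, 3487 and 3602 against 607.6, 628.5 and 570.0. All 16 tested neighbours, 8 on each side in reference order, were higher in JEKO1, 14 of them by at least 2-fold, with a median log2 difference of 1.68. The windows of 16 around TRAF3 and CDKN2A held 6 and 6 such genes. Around BCL2L11, which was itself higher in MAVER, 6 of 16 neighbours were higher in JEKO1, 1 of them by at least 2-fold. Those at least 2-fold higher in MAVER there were LIMS1 (-1.52), LINC00116 (-1.18), MIR4435-1HG (-4.47) and TMEM87B (-1.98). The median of that window was -0.22. These windows were added after the values were seen.

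The gene for the CDK inhibitor p16, CDKN2A, was at 757.6, 743.8 and 705.6 in JEKO1 and at 0, 0 and 0.905 in MAVER. Its neighbours MTAP, an enzyme of methionine salvage, and the antisense transcript CDKN2B-AS1 had no reads in MAVER and means of 766.6 and 29.1 in JEKO1. The genes that flank the 3, KLHL9 and CAAP1, were read in both lines, at 382.0 and 672.3 in JEKO1 and 345.6 and 326.8 in MAVER. How strand was treated in counting is not stated, so reads of CDKN2A and of an antisense partner may not have been kept apart. CDKN2B, the gene of the related inhibitor p15, did not pass the filter on low values.

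**Figure D4:**
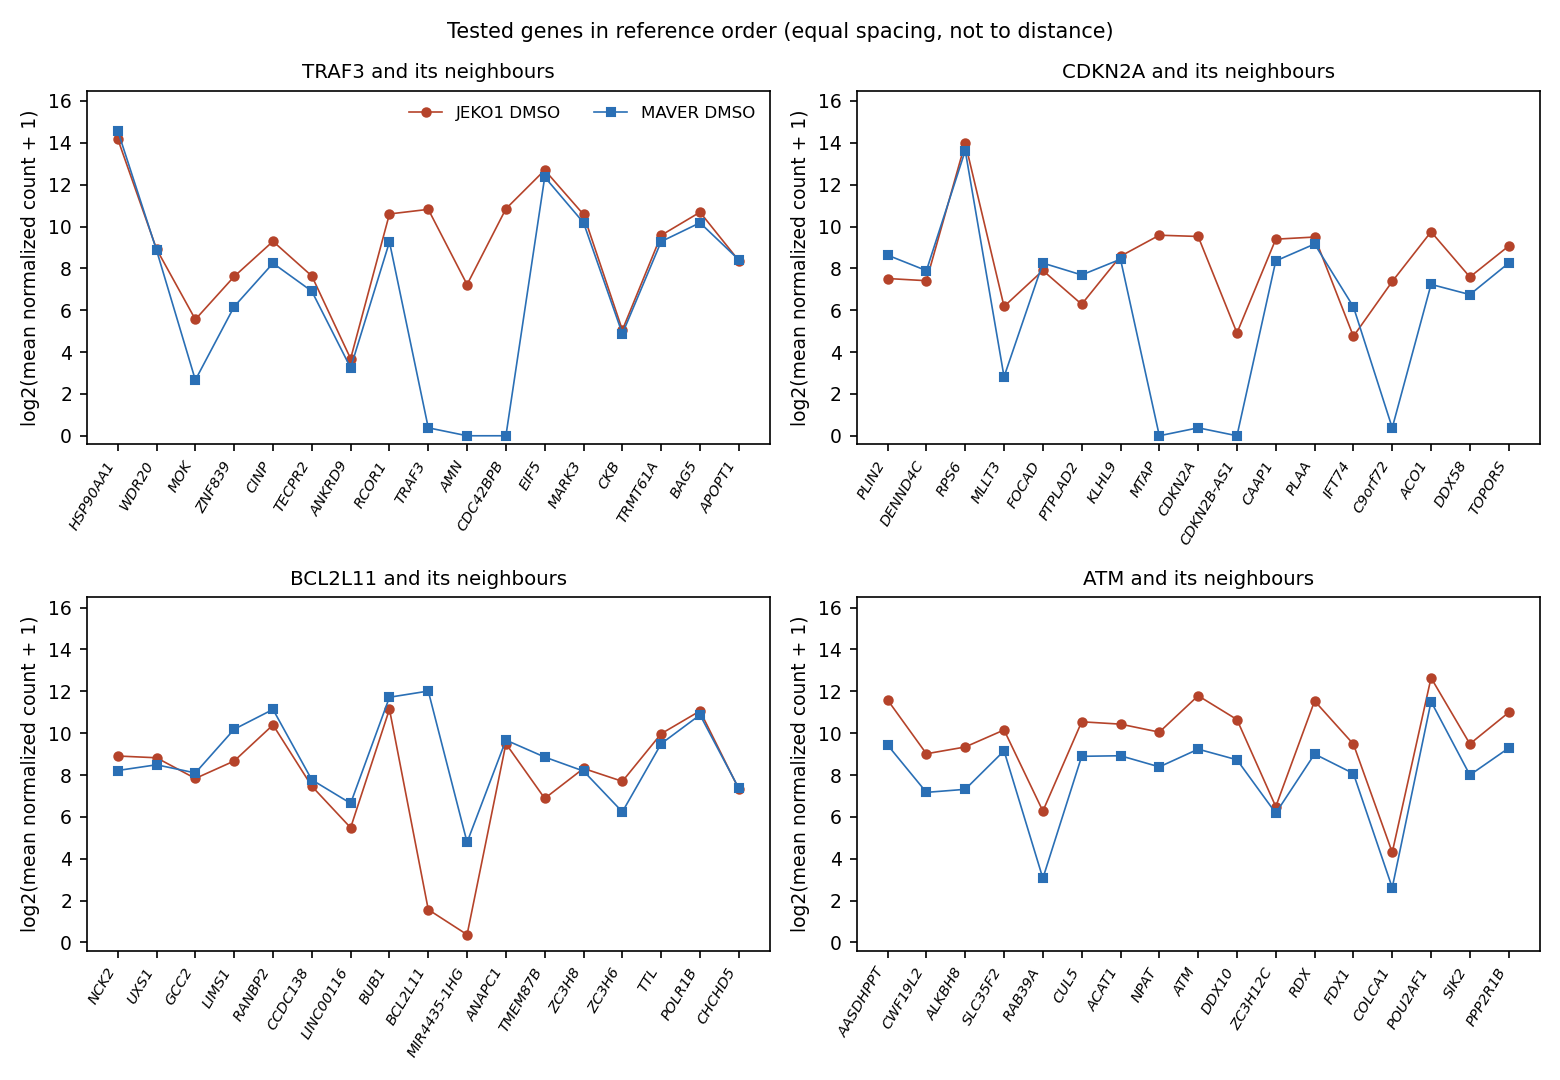
Mean level, as log2(mean normalized count + 1), of TRAF3, CDKN2A, BCL2L11 and ATM with 8 tested neighbours on each side in reference order, at equal spacing and not to genomic distance; red circles are JEKO1 DMSO and blue squares MAVER DMSO (means of 3 libraries). TRAF3, AMN and CDC42BPB, and MTAP, CDKN2A and CDKN2B-AS1, drop to or near 0 in MAVER between neighbours read in both lines, while the lines around ATM run apart over the whole window.

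Absence in 1 line was counted as a mean under 1 in that line and at least 50 in the other. Genes of the MHC segment, XIST, Y-linked genes and names altered to dates were not counted, which left out 16 genes that met the rule. By this rule 138 genes were near-absent in MAVER, 80 of them with no read in any of its 3 libraries, and 53 were near-absent in JEKO1, 29 of them with no read. Of the 138, 121 also had a mean under 1 in the other 9 MAVER libraries, and of the 53, 42 did so in the other 3 JEKO1 libraries. In reference order the near-absent genes lay next to each other in 19 runs in MAVER, holding 48 genes, and in 2 runs in JEKO1, holding 4, when a mean of 10 in the other line was enough. The longest run held 8 zinc finger genes, from ZNF823 to ZNF844, with means of 20.5 to 141 in JEKO1 and 0 in MAVER. Zinc finger genes of such clusters resemble each other, so their reads may have been shared. Other runs in MAVER were SIGLEC9 with SIGLEC7, inhibitory receptors for sialic acid, HOXA10 with HOXA13, and DOCK1 with FAM196A. The runs in JEKO1 were SMC1B with RIBC2, and HHIP with its antisense transcript HHIP-AS1.

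The highest of the genes near-absent in MAVER include several whose expression is normally held to the germ line. CTCFL, the testis paralog of the chromatin organizer CTCF, was at 3904, 3696 and 3882 in JEKO1 with no read in MAVER, at least 3790-fold higher. DPEP3 was at 2410 ± 115, the testis serine protease PRSS21 at 1081 ± 40.4 and the cancer-testis antigen MAGEB2 at 1395 ± 40.0 (SD, n = 3), with 1, 0 and 2 reads over the MAVER group. IGF2BP1, a fetal RNA-binding protein, was at 2748, 2731 and 2636 against 0, 0 and 1.81 (ratio 4010, counting interval 1110 to 33100). ERBB4, a receptor tyrosine kinase, was at least 905-fold higher in JEKO1, and the signalling ligand WNT5A was at 589.1, 556.7 and 609.0 with no read in MAVER.

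On the other side, FAR2, which makes fatty alcohols, had no read in JEKO1 and 784.7, 743.0 and 786.3 in MAVER, at least 781-fold higher. L1CAM, an adhesion molecule of neurons, was at 0, 0 and 0.976 in JEKO1 and 457.0, 543.4 and 452.4 in MAVER. NLRP7 and NLRP2, neighbouring relatives of the inflammasome family, were opposite: NLRP7 was at 1.88 in JEKO1 and 941.5 in MAVER, and NLRP2 at 690.3 in JEKO1 and 0.905 in MAVER. GPC6, MTX3, IMPACT and DEPDC1 also had no read in JEKO1, with means of 308.7 to 334.3 in MAVER.

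Promoters of the near-absent genes were poorer in CpG than those of other expressed genes. In the 250 bases before the start, the ratio of observed to expected CpG was above 0.6 for 63 of the 101 genes near-absent in MAVER with an entry (62.4%) and for 29 of the 39 near-absent in JEKO1 (74.4%), against 87.6% of 8692 genes tested. Among all promoters of the table the share was 50.6%. Genes called at least 2-fold lay between, at 76.6% when higher in JEKO1 and 81.1% when higher in MAVER. These are descriptions of the sequence, and DNA methylation was not analysed here.

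Genes of cholesterol synthesis and glycolysis differed by member more than by pathway, while the NRF2 and oxidative stress list leaned toward MAVER with DMSO. In cholesterol synthesis DHCR7 was higher in MAVER (654.5 against 3110) and SQLE and FDFT1 higher in JEKO1 (2263 against 566.7, and 3245 against 1154), with 4 of 24 called at least 2-fold higher in JEKO1 and 2 in MAVER, near or below the shares of 14.9% and 16.4% over all genes. In glycolysis 7 of 33 were called at least 2-fold higher in each line, beside the same shares over all genes. The phosphofructokinase genes PFKM and PFKP were higher in JEKO1 by 2.05 each on the log2 scale. The glucose transporter SLC2A1 was higher in MAVER (748.0 against 2505). In the NRF2 and oxidative stress list 13 of 27 were called at least 2-fold higher in MAVER and none in JEKO1 with DMSO (16.4% and 14.9% over all genes), 9 and 0 with the IB libraries of JEKO1, and 6 and 2 with IB in both lines. In it HMOX1, which degrades heme, was at 7.06, 19.4 and 8.78 in JEKO1 and at 540.8, 561.9 and 521.2 in MAVER, and GSTM1, a glutathione transferase with close paralogs, at 2.65, 1.14 and 0 and at 247.1, 258.6 and 257.9. Among drug transporters ABCC4 was higher in MAVER (39.0 ± 5.0 against 380.1 ± 17.3).

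Secreted signals and adhesion genes included further large differences. BMP7, a ligand of the TGF-beta family, was at 3550, 3534 and 3619 in JEKO1 and at 76.4, 96.0 and 96.8 in MAVER. WNT10A was at 7.94, 9.13 and 5.86 in JEKO1 and at 219.5, 249.9 and 285.9 in MAVER, but at 120.2 in JEKO1 labelled IB and 82.7 in MAVER labelled IB, a line difference of 0.53. The chemokine receptor CXCR4, which holds B cells in marrow and lymph node, was near equal (11910 against 10300). Of the 28 tested homing and adhesion genes, 13 were called at least 2-fold higher in MAVER and 4 in JEKO1. Over all genes these shares were 16.4% and 14.9%, and with IB in both lines the counts were 12 and 4.

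Few mitotic and nuclear transport genes differed by at least 2-fold, a difference called for 31.3% of all genes tested. MYC was higher in JEKO1 by nearly 2-fold with DMSO, but not with the IB libraries. XPO1, the export receptor that selinexor blocks, was at 6821, 6918 and 7506 in JEKO1 and at 6020, 5881 and 6173 in MAVER, a log2 difference of 0.23 ± 0.04 (adjusted p = 0.000246). Of the 33 nuclear transport genes, 3 differed by at least 2-fold: XPO5, the exporter of miRNA precursors, and XPO4 were higher in JEKO1, and IPO13, an import receptor, was higher in MAVER. IPO13 lay just past the threshold and fell under it with scaling to equal totals. Of 39 mitotic genes only UBE2C, which helps to end mitosis, was called at least 2-fold different (2377 against 987.0, log2 difference 1.27). UBE2C and XPO4 fell just under 2-fold in both comparisons with IB libraries. MYC, which drives growth, was at 12080, 11850 and 12110 in JEKO1 and at 5950, 6209 and 6242 in MAVER (0.97 ± 0.03). It was at 7533 in JEKO1 labelled IB and at 6983 in MAVER labelled IB. Its log2 difference was 0.30 with the IB libraries of JEKO1 and 0.11 with those of both lines. The median of the MYC network list was 0.15, and that of 46 cytosolic ribosomal proteins -0.12, with RPL30, which has many pseudogene copies, at -1.55. Among G1/S and replication genes 6 of 38 were called at least 2-fold higher in JEKO1, near the share of 14.9% over all genes, and 1 in MAVER, CDC25A (1.57), a phosphatase that starts S phase, and MCM10 (1.41), a factor that opens replication origins, among the former.

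**Figure D5:**
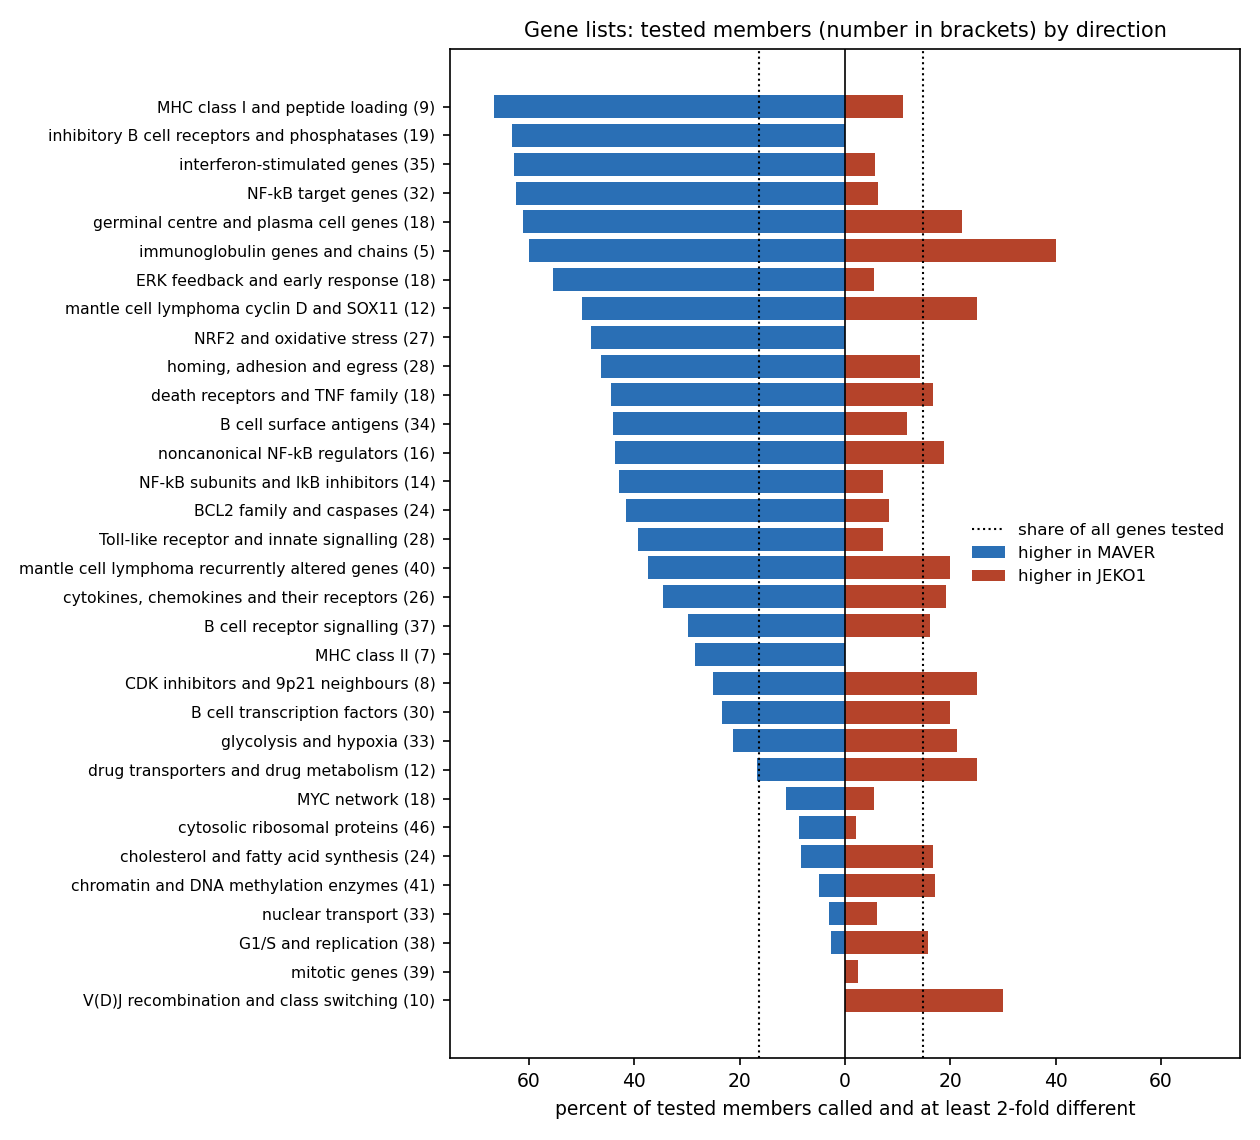
Percent of the tested members of each list shown that were called and at least 2-fold higher in JEKO1 (red, to the right) or in MAVER (blue, to the left), with DMSO; the number tested is in brackets and dotted lines mark the shares over all genes tested, 14.9% and 16.4%. The lists of MHC class I, inhibitory receptors, interferon-stimulated genes, NF-kB targets, and germinal centre and plasma cell genes reach above 60% toward MAVER. Those of mitosis, nuclear transport and ribosomal proteins stay below the dotted lines on both sides.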

How the data were processed

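Per the labels' protocols, total RNA of JEKO1 and MAVER cells was made into stranded libraries and sequenced as single reads of 50 bp. The submitters' processing notes name FastQC, STAR, Cufflinks, DESeq2 and hg19, without versions; the labels' protocols give STAR for alignment and Cufflinks for abundance, but the read counter behind the deposited values, its annotation and its strand setting are not stated there. The authors deposited normalized counts per gene (unit: signal, with no value below 0), in 1 table per line, each normalized apart. Divided by what 1 read is worth in its library, taken as the lowest value above 0, 100% of the values came out whole within 0.01 read, so whole reads were recovered, and no column was left unused.

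The 6 DMSO libraries were joined by gene and scaled together with TMM (edgeR 4.0.16, R 4.3.3). Genes with a mean of at least 10 were tested with limma 3.58.1 (lmFit, eBayes with trend) on log2(normalized count + 1), with Benjamini-Hochberg adjustment over all genes tested, and called at an adjusted p under 0.05. The adjusted p-values in the report come from that limma fit. On simulated data with 200 changed genes among 11686, 95% were recovered with 7 false calls. The edgeR quasi-likelihood test and DESeq2 1.42.0 on recovered reads were alternatives.

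Members of the 33 lists, the marker lists and the rule for named genes were chosen with earlier results of these data known. The rule names the 12 highest and 12 lowest differences at a mean of at least 50, up to 4 called members per list with the largest difference at that mean, a fixed set of lymphoma genes, and near-absent genes in runs or among the 10 highest per line; other list members named were chosen after their values were seen. XIST, Y-linked and mitochondrially encoded genes and names altered to dates (18 of the genes tested) are not named, and some results are not reported here. Counting intervals cover 95% and counting error only. Gene order and promoters come from RefSeq tables of GRCh38.p14, not from the build of the files, so coordinates are given only for the promoter stretches printed, in that build; 11434 of 11617 tested genes were placed.

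Alternatives were other pseudocounts, filters, scalings and tests, a replicate block, thinned reads, leaving out each library, and the IB libraries. The KPT and PU libraries of MAVER entered no test. The labels do not say that libraries of a line came from separate cultures, so their spread may be technical.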

Additional observations from a re-analysis of the deposited data

Results flagged for a closer look

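In 7 of the genes described above the line difference was called at least 2-fold in opposite directions with the DMSO libraries and with the IB libraries, and the difference between the 2 contrasts was itself called in a limma fit of line, label and their interaction over 12 libraries (Benjamini-Hochberg over all genes). JEKO1 moved from below MAVER to above it in 6 of them. EGR1 went from -1.02 to 7.40, an interaction of 8.42 ± 0.41 (SE, adjusted p = 2.07e-11), with 1.105, 0 and 0 normalized counts in the MAVER libraries labelled IB, so that its size depends on the pseudocount. PTPN6 went from -1.82 to 2.75 (interaction 4.57 ± 0.13, adjusted p = 3.38e-14) and NR4A3, a nuclear receptor of the early response, from -2.29 to 1.52 (3.80 ± 0.27, adjusted p = 4.14e-09). For CD83 the interaction was 3.01 ± 0.11, for NR4A1 2.90 ± 0.15 and for ICAM1 2.55 ± 0.14. HRK moved the other way, from 2.13 to -1.37 (interaction -3.50 ± 0.27, adjusted p = 1.24e-08). Whether the labels of JEKO1 were exchanged cannot be told apart from an opposite response, and with exchanged labels neither contrast would compare untreated cells of both lines.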

How the results depend on the processing

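Of the 146 tested genes with values in the text, none changed its direction or call under pseudocounts of 0.5 or 5, no filter, DESeq2 size factors, the edgeR quasi-likelihood test or DESeq2. ANAPC1, KLHL9 and RELA, with small differences, crossed the threshold under some scalings, without the trend, with thinned reads or without 1 library, and ANAPC1 turned to 1e-04 with the values as deposited. EGR1 fell under 2-fold in several settings, IPO13 under 3 scalings, and CAAP1, CDKN2B-AS1 and IPO13 without JEKO1 replicate C. The genes at least 2-fold higher in JEKO1 numbered 2656 with no filter and 1088 with a filter at a mean of 50, against 1736, and the runs of near-absent neighbours 4 with that filter, against 21. Of the calls, 49.8% were higher in JEKO1 with TMM and 59% with the values as deposited.

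Leaving out each library in turn gave 9090 to 9322 called genes, 4440 to 4684 higher in JEKO1 and 4560 to 4756 in MAVER, 1660 to 1794 and 1881 to 1971 at 2-fold, 133 to 144 near-absent in MAVER and 48 to 56 in JEKO1 (182 to 200 in all), 18 to 24 runs and a CpG share of 64.6 to 66.2%. The replicate letters did not pair the libraries (correlation of deviations 0.017, 0.044 and 0.087 for equal letters), and a replicate block gave 9684 called genes for JEKO1 DMSO minus MAVER DMSO and changed no call of a gene in the text.

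With the IB libraries of JEKO1 in place of its DMSO libraries the log2 difference reversed for CD83 (0.88), CXCR4 (-0.50), EGR1 (2.50), ICAM1 (1.26), NR4A3 (0.033), PTPN6 (1.76) and RELB (0.36). With the IB libraries of both lines it reversed for CD83 (1.17), CXCR4 (-0.92), EGR1 (7.40), HRK (-1.37), ICAM1 (1.05), NR4A1 (1.0028), NR4A3 (1.52), PTPN6 (2.75), RAG1 (-0.48), RELB (0.18) and WNT10A (0.53). The cause was not tested. Genes under a mean of 10 were not tested at this depth.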

Other observations

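Differences between the lines also ran along the chromosomes beyond the windows around TRAF3, CDKN2A, BCL2L11 and ATM. Stretches of at least 6 neighbouring tested genes, all differing by at least 0.5 on the log2 scale the same way, numbered 51 toward JEKO1 and 72 toward MAVER among 11434 genes placed; they were looked for after the values were seen and have no test. The longest toward JEKO1 held 28 genes from USP6NL to VIM-AS1 (median log2 difference 1.29) and 27 genes from DLEU2 to UCHL3 (median 1.38), and RB1 opened a shorter one of 6 genes up to SETDB2 (1.59). Among the longest toward MAVER were 26 genes from VPS13B to SYBU (median -2.05), 20 from PAG1 to OTUD6B (-2.26) and 20 from HCFC1-AS1 to IKBKG (-2.26), of which the last includes the kinase gene IRAK1 described above. CCND1 lay in a stretch of 9 higher in MAVER, from TPCN2 to RNF121, with the adaptor gene FADD and DHCR7 (median -2.13). MYC, on the other hand, closed a stretch of 12 higher in JEKO1 with DMSO that begins at TMEM65 (median 1.0). The difference of MYC itself was 0.11 with the IB libraries of both lines.

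Linker and core histone genes of the HIST1 cluster formed 2 stretches higher in JEKO1, 8 from HIST1H1C to HIST1H1D (median 3.13) and 9 from HIST1H2AI to OR2B6 (2.78). A stretch of 11 from SUN2 to CBX7, higher in MAVER (median -3.23), holds APOBEC3B, APOBEC3C, APOBEC3D, APOBEC3F, APOBEC3G and APOBEC3H, cytidine deaminase genes, which resemble each other in sequence. Copy number was not analysed here.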
